A study of Mus musculus with 6 samples.

Results

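The liver genes described here are 10 genes commonly read as the output of Wnt and beta-catenin signaling in hepatocytes: Axin2, Lgr5, Tbx3, Nkd1, Rnf43, Znrf3, Lect2, Glul, Slc1a2 and Rhbg. They were taken by name, not by their values, from the probes of a mouse expression array. The 10 genes had 15 of the 55681 non-control probes of the array, and 6 of them had 1 probe. Expression was measured in normal livers (n = 3) and in liver tumors (n = 3) of male C3H/HeN mice, a strain predisposed to spontaneous liver tumors. The mice were 74 to 75 weeks old and were F2 animals of a control group on a standard diet and tap water. Per the study's methods, the tumors carried a Ha-ras mutation, which the sample labels do not state, and neither source says whether any tumor and normal liver came from the same mouse. Total RNA of each tissue was hybridized to a separate SurePrint G3 Mouse array. All normal livers were on slide 1 and all tumors on slide 2, with a median local background of 42.0 to 45.0 intensity units on the former and of 22.0 to 23.0 on the latter, and tissue cannot be told apart from slide. Between 44.7% and 48.9% of spots were well above background on each array, and 0 spots were saturated. No source says that the samples are of separate animals, so p-values measure the spread between these samples.

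In the canonical pathway, a Wnt ligand binds a Frizzled receptor and an Lrp co-receptor, the complex of Axin, Apc and glycogen synthase kinase 3 stops marking beta-catenin for degradation, and beta-catenin activates target genes together with factors of the TCF family. R-spondin ligands strengthen the signal by binding Lgr receptors and removing the ubiquitin ligases Rnf43 and Znrf3, which otherwise clear Frizzled from the cell surface. In the liver lobule the signal is strongest around the central vein, where endothelial cells release Wnt and R-spondin ligands and the neighboring hepatocytes make glutamine from ammonium. Tumors with an activating mutation of beta-catenin are known for strong glutamine synthetase, the product of Glul.

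The promoters of 3 metabolic or secreted readout genes are shown because the values of these genes followed each other across the 6 samples. The tumor 1 value of Slc1a2 was not well above background, and Nkd1, not shown, also followed Glul (Pearson r = 0.92). The windows are the 250 bases before the annotated start, from RefSeq on GRCm38.p6, read 5′ to 3′ on the gene's strand. Capitals mark a 7-base TCF core motif, spelled as CTTTG followed by AA, AT, TA or TT and searched on both strands. Each of these spellings, the marked ATCAAAG included, also fits the motif of Sox factors.
Lect2, chr13:56548539-56548788, minus strand: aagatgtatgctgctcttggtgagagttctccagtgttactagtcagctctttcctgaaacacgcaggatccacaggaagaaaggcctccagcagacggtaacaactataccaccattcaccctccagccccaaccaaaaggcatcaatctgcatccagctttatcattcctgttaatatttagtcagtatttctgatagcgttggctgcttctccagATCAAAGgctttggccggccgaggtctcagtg
Slc1a2, chr2:102706188-102706437, plus strand: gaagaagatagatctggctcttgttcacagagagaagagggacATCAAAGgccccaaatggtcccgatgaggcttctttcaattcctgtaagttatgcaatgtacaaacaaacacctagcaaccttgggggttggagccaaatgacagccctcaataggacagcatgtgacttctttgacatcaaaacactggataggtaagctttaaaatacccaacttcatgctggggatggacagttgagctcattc
Glul, chr1:153899679-153899928, plus strand: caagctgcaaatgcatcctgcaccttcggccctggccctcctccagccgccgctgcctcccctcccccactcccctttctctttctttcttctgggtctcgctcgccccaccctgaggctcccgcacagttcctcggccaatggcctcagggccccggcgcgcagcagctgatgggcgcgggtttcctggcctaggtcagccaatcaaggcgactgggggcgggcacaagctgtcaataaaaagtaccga
Windows were matched for 6 of the 10 genes, all except Lgr5, Tbx3, Znrf3 and Rhbg. Lect2 held ATCAAAG 32 bases before the start and Slc1a2 held the same letters 207 bases before it. None of the 4 motifs was found in the windows of Glul, Axin2, Nkd1 and Rnf43. Of all 32851 windows of this length, 14.8% held at least 1 of the motifs and 3.21% held CTTTGAT or its complement. A match is a description of the sequence and not evidence of a binding site.

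Of the 10 readout genes, 6 were lower in the tumors and 0 were higher at an adjusted p under 0.05 in limma, nor was any higher at an unadjusted p under 0.05 or by either form of the methods' t-test. Glul, Rhbg, Tbx3, Lect2, Lgr5 and Nkd1 fell. Slc1a2, Rnf43 and Znrf3 did not pass the test, and Axin2 was too dim to be tested. A gene was tested where each of the 3 arrays of either group showed its brightest probe well above background, and 9 of the 10 genes passed this filter. A large share of the transcriptome differed between the groups: limma called 21.0% of 18544 genes lower and 13.1% higher. In 8 of the 10 readout genes every tumor lay below every normal liver, which held for 30.4% of all 34723 genes without the filter. The median log2 fold change, tumor minus normal, was -1.82 over the 10 genes and -1.76 over the 9 tested, against -0.13 over all genes tested. The 10 genes were called lower in smaller number without the filter on dim probes (3 genes), and without normal liver 1 or normal liver 2 (3 genes each). With spike-in scaling 7 genes were called lower, although the share of higher probes among all called probes moved from 37.8% to 53.7%. These are bulk tissues, in which fewer cells of a type and less RNA per cell cannot be told apart.

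**Figure D1:**
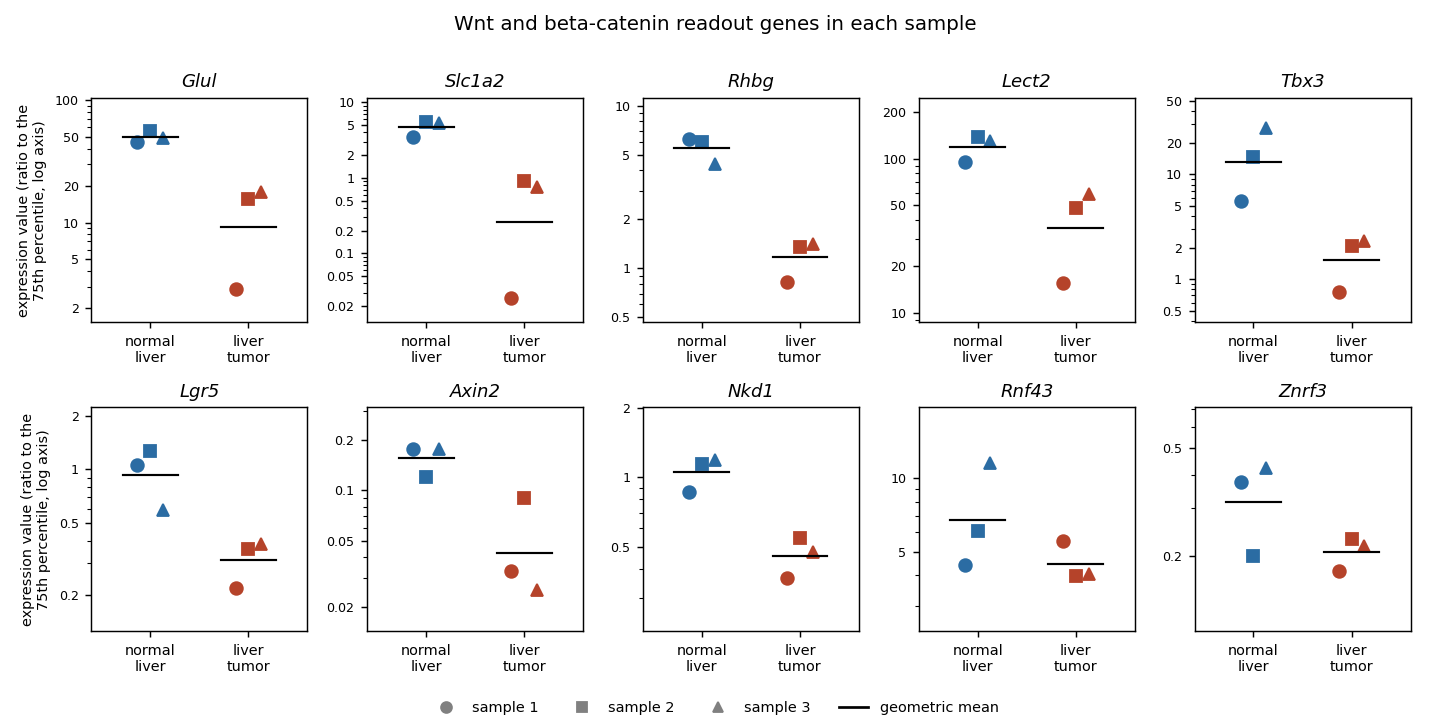
Expression value of each readout gene (signal divided by the array's 75th percentile, log axis) in the 3 normal livers (blue) and 3 liver tumors (red), by the brightest probe, with the geometric mean as a bar and a marker shape for each sample number. Every tumor lies below every normal liver except in Rnf43 and Znrf3, and the Axin2 values of all 3 tumors and the Slc1a2 value of tumor 1 were not well above background.

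Glul, Rhbg and Slc1a2, which act in glutamine synthesis and in ammonium and glutamate transport, lay lower in each tumor than in each normal liver. Glul, the glutamine synthetase of perivenous hepatocytes, had expression values of 45.2, 55.9 and 49.2 in normal livers 1, 2 and 3 and of 2.85, 15.5 and 17.8 in tumors 1, 2 and 3. Expression values are processed signals divided by the array's 75th percentile. The 3 normal livers were close to each other, all tumors lay below them, and tumor 1 stood well below the other two. The mean fell from 50.1 ± 5.42 to 12.0 ± 8.05 (SD, n = 3 each), with a log2 fold change of -2.44 (SE 0.68) and a limma adjusted p of 0.0348. Without tumor 1 the log2 fold change was -1.59, with a limma adjusted p of 0.00203. The call was lost without normal liver 1, 2 or 3, at limma adjusted p of 0.0832, 0.0967 and 0.086, and without the filter on dim probes, at 0.091.

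Rhbg, an ammonium transporter of the Rh family, had values of 6.27, 5.99 and 4.35 in the normal livers and of 0.827, 1.36 and 1.42 in the tumors. The groups were clearly apart, and the log2 fold change was -2.23 (SE 0.25, limma adjusted p = 0.00205). This call held with each array left out in turn, with limma adjusted p up to 0.0116. Slc1a2, the glutamate transporter that perivenous hepatocytes use for uptake, was measured by 3 probes. Its brightest probe had values of 3.51, 5.45 and 5.4 in the normal livers and of 0.0255, 0.9 and 0.757 in the tumors. Tumor 1 was not well above background there, so its value is a bound set by the array and not a level. The log2 fold change of -4.18 (SE 1.32) did not pass the test, with a limma adjusted p of 0.0519, but without tumor 1 it was -2.51 with a limma adjusted p of 0.00194. Slc1a2 did not pass without normal liver 1, 2 or 3 or tumor 3, at limma adjusted p of 0.106, 0.127, 0.123 and 0.0557. Without tumor 2 the limma adjusted p was 0.0467, but that fit rests on the tumor 1 value. The probe then also passed the filter through the normal livers alone, so this call is not counted in support. The second probe had values of 0.362, 0.454 and 0.477 in the normal livers and was not well above background in any tumor. By that probe Slc1a2 was at least 4.02-fold lower in the tumors, where the bound sets the mean of the normal livers against the higher of the array's detection level and the probe's own signal. The second probe passed the filter through the normal livers alone, so its call is not counted in support of the first. The third probe did not rise well above background in any sample.

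**Figure D2:**
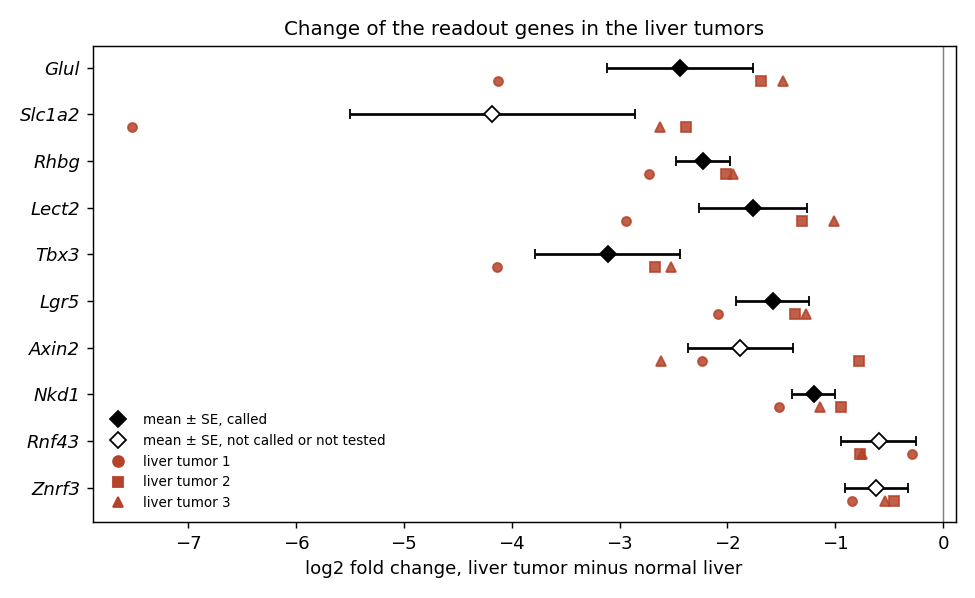
Log2 fold change (liver tumor minus normal liver) of each readout gene, with the mean of the 3 tumors and its SE (diamonds, filled where called) and each tumor against the mean of the normal livers (red markers). All 10 means lie below 0, and tumor 1 is the lowest tumor in 8 of the 10 genes, although its Slc1a2 value and all Axin2 tumor values were not well above background and so carry no exact size.

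Tbx3, Lect2 and Lgr5 were also lower in every tumor than in every normal liver. Tbx3, a T-box transcription factor that beta-catenin induces in liver, varied widely among the normal livers, with values of 5.6, 14.8 and 27.8. In the tumors it was at 0.748, 2.08 and 2.31. The highest tumor was still below the lowest normal liver, and the log2 fold change was -3.11 (SE 0.67, limma adjusted p = 0.0156). Without normal liver 2 the adjusted p was 0.0531. On linear values Tbx3 passed neither the unpaired nor the paired form of the methods' t-test at an unadjusted p under 0.05. Lect2, a protein that hepatocytes secrete and a chemotactic factor for leukocytes, had values of 94.9, 138 and 129 in the normal livers and of 15.5, 48 and 59 in the tumors. Tumor 1 was again the lowest. Lect2 fell by 1.76 on the log2 scale (SE 0.50, limma adjusted p = 0.0369). The call was lost without normal liver 1, 2 or 3, at limma adjusted p of 0.0703, 0.105 and 0.0965, without tumor 2, at 0.055, and without the filter, at 0.0971. In tumors 2 and 3 the log2 fold change of Lect2 was -1.16. Lgr5, a receptor for R-spondins and itself a Wnt target of hepatocytes at the central vein, had values of 1.06, 1.27 and 0.592 in the normal livers. The tumors had 0.218, 0.358 and 0.384, all below normal liver 3, the lowest of its group. The log2 fold change was -1.58 (SE 0.34, limma adjusted p = 0.0158). The call was lost without normal liver 1 or normal liver 2, at limma adjusted p of 0.0551 and 0.0515, and without the filter, at 0.0502. A second Lgr5 probe did not rise well above background in any sample.

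Axin2, Nkd1, Rnf43 and Znrf3 encode feedback inhibitors that Wnt signaling itself induces, and of these Nkd1 was the gene called. Nkd1, which binds Dishevelled and dampens the signal, fell from 0.858, 1.14 and 1.18 in the normal livers to 0.364, 0.543 and 0.474 in the tumors. The groups were apart and the spread within each was small. The log2 fold change was -1.20 (SE 0.20, limma adjusted p = 0.00651), and the call held with each array left out in turn, with limma adjusted p up to 0.0291. A second, dimmer Nkd1 probe was well above background in 2 of 3 normal livers and in 0 tumors, and gave a bound of at least 1.45-fold lower. It was not among the probes tested.

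Axin2, the scaffold of the destruction complex that serves as a general readout of the pathway, was near the detection level of the array. Its brightest probe had values of 0.177, 0.12 and 0.178 in the normal livers and of 0.033, 0.0906 and 0.0253 in the tumors. All tumors were below all normal livers, yet only 1 of the 3 normal livers and 0 of the 3 tumors were well above background. It was not tested, and the nominal log2 difference, -1.88 as deposited and -0.42 with normexp background correction, is not a measured size. The other Axin2 probe had values of 0.036, 0.163 and 0.23 in the normal livers and of 0.0255, 0.0219 and 0.0483 in the tumors, so that normal liver 1 lay among the tumors. It was well above background in 2 of the 3 normal livers and in 0 tumors, and when normal liver 1 was left out it entered the test, through the normal livers alone, with a limma adjusted p of 0.0123.

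The ubiquitin ligases Rnf43 and Znrf3 did not pass the test. Rnf43 had values of 4.41, 6.09 and 11.5 in the normal livers and of 5.54, 3.98 and 4.03 in the tumors. Tumor 1, the lowest tumor for most readout genes, was the highest tumor for Rnf43 and lay above normal liver 1. The log2 fold change was -0.60 (SE 0.35, limma adjusted p = 0.236). Znrf3 had values of 0.375, 0.2 and 0.424 in the normal livers and of 0.176, 0.231 and 0.218 in the tumors. Normal liver 2 lay among the tumors, and the log2 fold change was -0.62 (SE 0.29, limma adjusted p = 0.152). Without normal liver 2, the limma adjusted p of Znrf3 was 0.0218. For single values, an exact two-sided permutation test of 3 against 3 samples cannot go below 0.1.

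Tumor 1 had the lowest values for most readout genes. The median log2 fold change over the 10 genes was -2.48 in tumor 1, -1.34 in tumor 2 and -1.38 in tumor 3, each against the mean of the normal livers. Over the 9 genes tested, without Axin2, it was -2.73, -1.37 and -1.27, so tumors 2 and 3 have no fixed order. Tumor 1 was the lowest tumor in 8 of the 10 genes, all except Axin2 and Rnf43. It was the lowest tumor in 35.7% of all genes tested and in 66.8% of the 3901 genes called lower. Outside the 10, tumor 1 was the lowest tumor in 18 of 18 pericentral genes, and in 7 of 16 periportal genes. Without tumor 1, 7 of the readout genes were called lower, with Slc1a2 added, and the median over the 10 genes was -1.46.

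**Figure D3:**
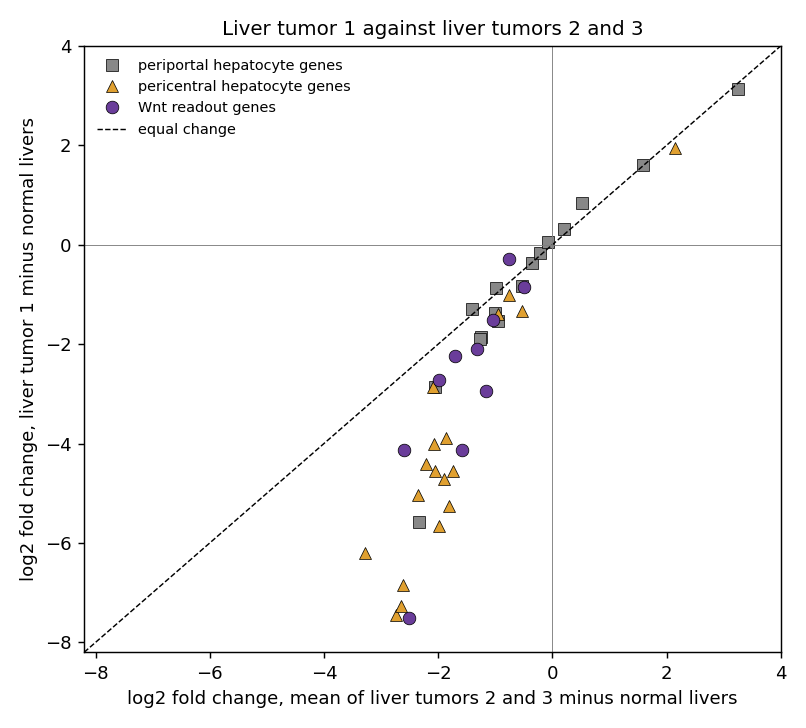
Log2 fold change in liver tumor 1 (y axis) against the mean of liver tumors 2 and 3 (x axis), each against the mean of the 3 normal livers, for the readout genes, 18 pericentral genes and 16 periportal genes. The dashed line marks equal change, and most readout and pericentral genes lie below it, for example Glul at -4.13 in tumor 1 and -1.59 in tumors 2 and 3, while the lowest readout point is Slc1a2, whose tumor 1 value was not well above background.

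Upstream of the readout genes, several ligands of the pathway were also lower. Of 25 ligand genes and ligand-processing genes, 9 were tested, 5 fell and 0 rose, and 13 were not well above background on any array. The median over the 9 was -0.82. Wnt16, which was not tested among the 9, was well above background in 0 of 3 normal livers. Without tumor 1 it entered the test through the tumors alone, which selects for a difference, and was called higher (limma adjusted p = 0.0354). Rspo3, the R-spondin of central vein endothelium, had values of 1.86, 2.28 and 2.34 in the normal livers and of 0.568, 0.721 and 1.0 in the tumors. The groups were apart, with a log2 fold change of -1.53 (SE 0.22, limma adjusted p = 0.00447), and the call held with each array left out. Wnt4 and Wnt5b also fell, with log2 fold changes of -1.97 and -1.46 (limma adjusted p = 0.0304 and 0.0155). Wnt4 was not well above background in tumor 1, and its log2 fold change was -1.45 in tumors 2 and 3. The remaining falls were those of Wnt11 (-0.82, with tumor 2 not well above background) and of Porcn (-0.70), which attaches the lipid that Wnt proteins need for secretion. Wnt4 and Wnt11 passed the filter through the normal livers alone, which selects for a difference. With a signal well above background required on all 6 arrays, 3 ligands were called lower. Wnt4, Wnt5b, Wnt11 and Porcn each lost the call when some single array was left out. The number of ligands called dropped to 2 without normal liver 1 or normal liver 2, and to 2 without the filter. Wnt2 and Wnt9b, the Wnt ligands best known from central vein endothelium, were too dim to be tested. Wnt2 had a mean of 0.115 ± 0.0253 in the normal livers and 0.0594 ± 0.0238 in the tumors, and Wnt9b had 0.226 ± 0.0741 and 0.135 ± 0.0827 (SD, n = 3 each). Wnt9b overlapped between the groups.

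The receptors and the cytoplasmic machinery had medians near that of all genes. Of 17 receptor genes 10 were tested, of which 2 rose and 2 fell, with a median of -0.11. Fzd3 was well above background in 0 of 3 normal livers and reached 1.96, 0.988 and 0.911 in the tumors, at least 9.31-fold higher. It passed the filter through the tumors alone, which selects for a difference, and its limma adjusted p over all probes without the filter was 0.00112. Fzd5 rose by 1 of its probes (log2 fold change 1.31, with normal liver 2 not well above background), while its other tested probe, with 0.08, did not pass. The Fzd5 probe that rose also passed the filter through the tumors alone, and without the filter its limma adjusted p was 0.0423. Fzd7 and Fzd8 fell, with log2 fold changes of -0.91 and -0.90. Lgr4, the R-spondin receptor found throughout the lobule, had 0.478 ± 0.0717 in the normal livers and 0.443 ± 0.0505 in the tumors (limma adjusted p = 0.649). All 17 genes of the beta-catenin destruction complex and its regulators were tested, and 15 of them did not pass by their brightest probe, with a median of -0.06. A dimmer probe of Tnks was called lower and one of Csnk1e higher, and averaging the probes of a gene called 3 of the 17 lower, against 1. Ctnnb1, the gene of beta-catenin, was higher in each tumor, with values of 11.3, 12.4 and 12.6 in the normal livers and of 16.9, 15.4 and 17.2 in the tumors. This was a log2 fold change of 0.44 (SE 0.11, limma adjusted p = 0.0246). Apc, the scaffold that holds beta-catenin in the complex, had a log2 fold change of -0.56 (limma adjusted p = 0.0355). The call of Ctnnb1 was lost with any array but that of tumor 2 left out, at limma adjusted p up to 0.0727, and that of Apc with any array left out, at up to 0.104. Spike-in scaling also ended both calls (limma adjusted p = 0.151 and 0.186), as did dropping the filter (0.113 and 0.119), while the replicate block ended that of Ctnnb1 (0.0581) and quantile normalization that of Apc (0.0505). Arrays measure RNA, and neither the protein nor the mutation state of beta-catenin was measured.

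Of 14 TCF factors and nuclear partners 11 were tested, of which 1 rose and 2 fell. Over all genes tested, 13.1% were called higher and 21.0% lower, so these counts are near the shares of all genes. The median of the list was -0.17, against -0.13 over all genes tested. Tcf7, not well above background in normal liver 2, rose by 1.58 on the log2 scale (limma adjusted p = 0.0267). It passed the filter through the tumors alone, which selects for a difference. Its call was lost without tumor 1 (limma adjusted p = 0.0634) and without the filter on dim probes (0.0752). Bcl9l, a co-activator of beta-catenin, fell by 0.65, and the co-repressor Tle2 fell by 0.40. The call of Tle2 was lost with any array but that of normal liver 3 left out, at limma adjusted p up to 0.0834. Both lower calls were lost with spike-in scaling (limma adjusted p = 0.109 for Bcl9l and 0.428 for Tle2) and without the filter (0.0531 and 0.12). Tcf7l2, the main TCF factor of adult liver, had a log2 fold change of -0.55 with a limma adjusted p of 0.1, and Lef1 was well above background in 1 tumor and in 0 normal livers. Of 17 secreted or intracellular antagonists only 5 were tested. Dkk4, an inhibitor of Lrp co-receptors that Wnt signaling induces, fell with a log2 fold change of -2.87, as did the Nkd1 relative Nkd2 with -1.92 and Dkk3 with -1.47. The calls of Nkd2 and Dkk3 held with each array left out in turn, with limma adjusted p up to 0.0195. Dkk4 was not well above background in tumors 1 and 2, so the size of its fall is not a measured level. Dkk4 passed the filter through the normal livers alone, which selects for a difference, and without the filter its limma adjusted p was 0.0159. Notum, which strips the lipid from Wnt proteins, was at 21.1 ± 0.869 in the normal livers and 19.2 ± 0.961 in the tumors (limma adjusted p = 0.337).

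Genes that beta-catenin is known to induce in other tissues went both ways. Of 8 such genes 3 rose and 2 fell, with a median of -0.32, while 13.1% of all genes tested were called higher and 21.0% lower. Ascl2, a factor of intestinal stem cells, was well above background in 0 of 3 normal livers and was at least 6.40-fold higher in tumors. It passed the filter through the tumors alone, and without the filter its limma adjusted p was 0.00418. Birc5 and Ccnd1, which act in cell division and are induced by many signals, rose by 3.51 and 2.14 on the log2 scale. Sp5, a direct Wnt target in many tissues, fell from 0.408, 0.564 and 0.819 in the normal livers to 0.0267, 0.137 and 0.213 in the tumors. Tumor 1 was not well above background, and the log2 fold change was -2.64 with that value (SE 0.75, limma adjusted p = 0.0383) and -1.75 in tumors 2 and 3. Sp5 passed the filter through the normal livers alone, which selects for a difference. The call was lost without normal liver 1, 2 or 3 or tumor 2, at limma adjusted p of 0.0728, 0.0958, 0.108 and 0.0621. The other gene that fell was Ephb2, with a log2 fold change of -0.61 and a limma adjusted p of 0.0204, and its call was lost without normal liver 2 or any 1 of the tumors, at up to 0.058.

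**Figure D4:**
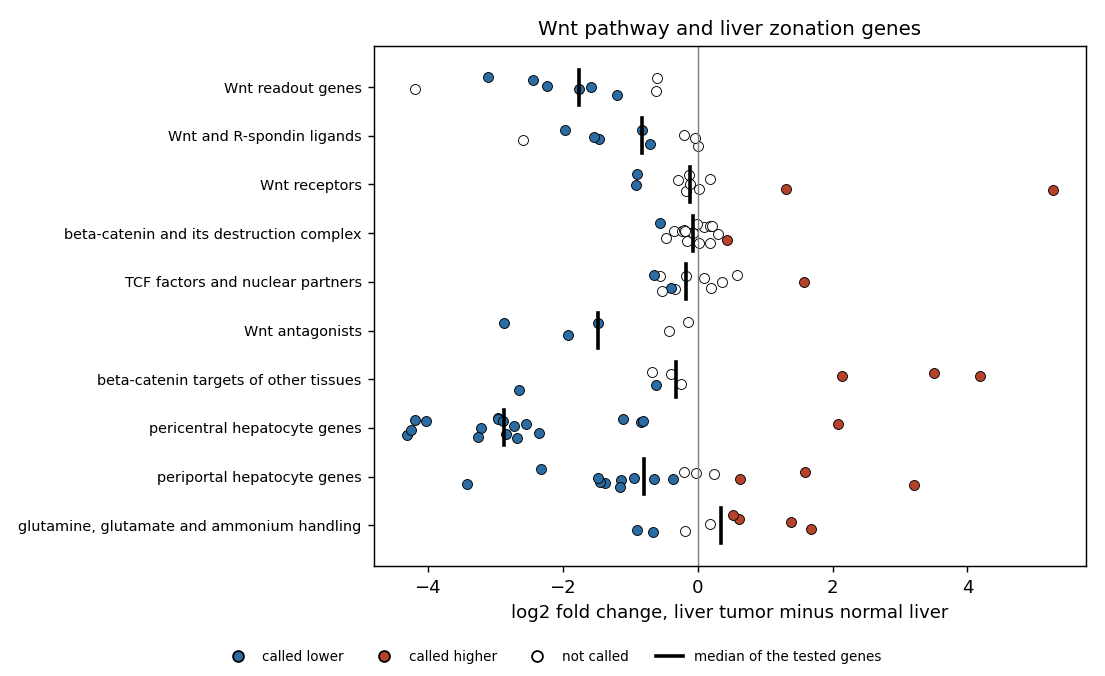
Log2 fold change (liver tumor minus normal liver) of every tested gene in 10 lists, 1 point a gene, colored by its limma call, with the median of each list as a bar. The readout genes (median -1.76) and the pericentral genes (-2.87) lie mostly left of 0, the destruction complex (-0.06) lies around it, and the genes of glutamine handling have a median of 0.35.

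Among hepatocyte genes by position in the lobule, those of the pericentral zone were lower almost throughout. Of 18 pericentral genes 17 fell and 1 rose, with a median log2 fold change of -2.87. Cyp2e1, a cytochrome P450 that oxidizes ethanol, had values of 1222, 1251 and 1265 in the normal livers and of 32.8, 329 and 383 in the tumors. It fell by 2.96 on the log2 scale (SE 0.90, limma adjusted p = 0.0467), and by 1.81 in tumors 2 and 3. Among the larger falls were those of Cyp1a2, which metabolizes caffeine (log2 fold change -4.31, or -2.74 in tumors 2 and 3), and Cyp2c50 (-4.19, or -2.65). Cyp7a1, the rate-limiting enzyme of bile acid synthesis, was not well above background in tumor 1, and its log2 fold change was -4.25 with that value and -3.28 in tumors 2 and 3. Cyp7a1 passed the filter through the normal livers alone, which selects for a difference. The exception was Slc13a3, a dicarboxylate transporter, which rose from 5.07 ± 0.849 to 21.3 ± 1.78 (limma adjusted p = 0.000495). As with Glul, many of these calls depended on single arrays and on the processing: 6, 4 and 6 pericentral genes were called lower without normal liver 1, 2 and 3, 15 without tumor 1 and 11 without tumor 2. Without the filter on dim probes 6 were called lower, and with quantile normalization 12. Without tumor 1 the median was -2.03.

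Periportal genes, which Wnt signaling is known to repress, did not rise as a group. Of 16 such genes 10 fell and 3 rose, with a median of -0.79. Cyp2f2 fell by 3.41 on the log2 scale (limma adjusted p = 0.025), and its log2 fold change was -2.33 in tumors 2 and 3. Its call was lost without any 1 of the normal livers, at limma adjusted p up to 0.0728. G6pc, which releases glucose from its phosphate, fell by 2.32 on the log2 scale. Cdh1, the epithelial cadherin, rose by 3.21. Gls2, the liver glutaminase and the periportal counterpart of Glul, had values of 104, 141 and 119 in the normal livers and of 107, 91.3 and 119 in the tumors, with overlapping groups and a limma adjusted p of 0.386. Glul minus Gls2 within an array, which does not depend on the scaling of the array, was -1.20, -1.33 and -1.27 on the log2 scale in the normal livers and -5.23, -2.56 and -2.74 in the tumors. The difference between the groups was -2.24 (exact two-sided permutation test, p = 0.1, the smallest possible). Of the other genes that handle glutamine, glutamate and ammonium 8 were tested, of which 4 were called higher and 2 lower. With spike-in scaling and without the filter on dim probes, and also without normal liver 1 or tumor 2, 2 were called higher and 1 lower. Slc1a4, a transporter of neutral amino acids, rose by 1.68 on the log2 scale, while the amino acid transporter Slc38a4 fell by 0.90. Both calls held with each array left out.

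The general hepatocyte markers were well above background in all 6 samples labelled as liver. Of 10 such markers 8 did not pass the test by their brightest probe, Apoa1 was higher and Asgr1 lower, and the median was -0.08. Another probe of Apob was called higher, with a log2 fold change of 0.55 (limma adjusted p = 0.0455). The summed expression value of the 10 markers was 9852, 9598 and 8945 in the normal livers and 9470, 9542 and 9014 in the tumors. Alb, the brightest of these markers, had 2273 ± 303 and 2169 ± 49.4. Of 11 markers of endothelial cells, Stab2 and Clec4g fell by their brightest probes, with log2 fold changes of -0.78 and -0.49. The other 9 did not pass, and over all genes tested 21.0% were called lower. Spike-in scaling called 0 of these markers lower and 1 higher, and without the filter 0 were called. The other tested probes of Stab2 did not pass, with log2 fold changes of 0.09 and 0.02. Their sum was 113, 119 and 128 in the normal livers and 88.4, 99.1 and 93.1 in the tumors, with Clec4g the brightest at 49.5 ± 6.45 and 35.1 ± 4.37. Clec4g was called only narrowly, with a limma adjusted p of 0.0496, and lost its call when any array but that of normal liver 1 was left out, at up to 0.149.

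Of 7 macrophage markers 5 fell, with a median of -1.24, and their sum was 122, 96.7 and 168 in the normal livers and 81.0, 48.7 and 53.3 in the tumors. The log2 fold change was -1.84 for Clec4f, a lectin of Kupffer cells, -1.65 for Timd4, -1.27 for Vsig4 and -1.08 for Cd5l, the brightest, whose call was lost without normal liver 1 or 3 or tumor 2 or 3, at limma adjusted p up to 0.122. Leaving out a single array gave 3 to 7 macrophage markers called lower. Of 8 stellate cell and fibroblast markers 4 fell and 2 rose. Lrat, which stores retinol in stellate cells, fell by 1.83 and Dcn, the brightest, fell by 1.64, while Col1a1 rose by 1.58. Their sum was 82.2, 82.9 and 101 in the normal livers and 24.7, 37.5 and 44.4 in the tumors. Of the tested markers of cholangiocytes (5 of 7), lymphocytes (3 of 6) and neutrophils (4 of 6), 0 were called by limma at the adjusted threshold, and 0, 1 and 1 had an unadjusted p under 0.05. Their brightest genes were Spp1, Cd3e and S100a9, with limma adjusted p of 0.284, 0.904 and 0.357, and their sums were 2.59 to 3.35, 6.82 to 8.56 and 6.12 to 8.10 in the normal livers and 2.22 to 2.48, 6.80 to 8.92 and 5.69 to 18.5 in the tumors. The highest neutrophil sum was that of tumor 1. The part of these cell types in the fall of the readout genes was not tested.

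Across the 6 samples, the genes whose log2 values followed Glul most closely among 16481 genes were Cyp1a2 (Pearson r = 0.9993), Zfyve1 (0.9990) and Cyp2c38 (0.9988). Cyp1a2 and Cyp2c38 are cytochrome P450 genes of the liver. Cyp2c38 had values of 257, 314 and 309 in the normal livers and of 1.78, 42.7 and 48.8 in the tumors, with the same low tumor 1 as Glul. These coefficients describe 6 points in 2 separate groups, which fix most of their size, and carry no test. Among the readout genes themselves, Lect2 and Slc1a2 were closest to Glul (r = 0.99 each) and Rnf43 was the least close (0.31). The r of Slc1a2 includes its tumor 1 value, which was not well above background.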

How the data were processed

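For each array the authors deposited the Feature Extraction output (version 10.7.3.1 by the file headers, 12.0.3.1 by the submitters' processing notes), with a processed signal intensity from which background had been subtracted and spatial trends removed, and a table of the ratio of that signal to the array's 75th percentile. The deposited intensities were divided by the 75th percentile over all spots of the array and log2 was taken. Control and outlier spots were left out and spots of a probe were averaged. Probes had to be well above background on each array of either group, which left 24898. A two-sided test in limma 3.58.1 (lmFit and eBayes, under R 4.3.3), adjusted over all of these after Benjamini-Hochberg with a threshold of 0.05, called 3112 probes (12.5%) higher and 5126 (20.6%) lower. A gene was represented by its brightest probe. Means ± SD are of linear expression values. The script was tested on simulated data.

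Probes were named from RefSeq annotation of GRCm38.p6 by accession (27235), symbol (3581) or synonym (565), and 24300 kept the design's name. The 10 genes, the 17 lists of 208 genes and the tests were chosen with earlier results of these data known. Besides the 10 genes, the rule for names took up to 3 called genes of each list by size of change, 12 set genes, each marker list's brightest gene and the closest genes to Glul and Axin2. Some items that the rule took are not reported here. Genes of small counts outside it, Slc13a3 included, were named after their values were seen. The methods' t-test, unpaired and paired, normexp, quantile and spike-in scaling, 2 other filters, the deposited ratios, the replicate block, averaging the probes of a gene, a variance trend and leaving out each array were the alternatives. The number of arrays limits the precision. Files were read with pandas 2.3.3 and numpy 2.4.6 and figures drawn with matplotlib 3.10.9 under Python 3.11.15, and scipy 1.17.1 gave the t-tests and permutation tests.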

Additional observations from a re-analysis of the deposited data

How the results depend on the processing

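No readout gene was called higher under any alternative run, and the fold changes of all 10 kept their direction. Without the filter on dim probes 4674 probes, 3 readout genes (lower) and 44 list genes were called, against 8238, 6 and 80. Spike-in scaling called 5077 probes. It called 7 readout genes lower, as did normexp, the deposited ratios, a variance trend and averaging the probes of a gene. Quantile normalization called 5 readout genes lower. The unpaired form of the methods' t-test called 5261 probes and 46 list genes after Benjamini-Hochberg adjustment, and 4 readout genes. At unadjusted p under 0.05 it called 10068 probes. Leaving out 1 array gave 4965 (without normal liver 2) to 7116 probes (without tumor 3), 3 to 7 readout genes and 48 to 75 list genes. Of the 80 list genes called, 38 lost the call without the filter, 18 with spike-in scaling, 14 with quantile normalization, 7 with the replicate block and 4 with normexp. Of the genes named here, quantile normalization ended the calls of Lect2 (limma adjusted p = 0.054), Wnt11 (0.0576), Apc (0.0505), Tle2 (0.0733), Sp5 (0.0517), Cyp2e1 (0.0592), Clec4g (0.125) and Cd5l (0.081), and normexp those of Tle2 (0.0632) and Clec4g (0.107). Spike-in scaling ended those of Porcn (0.0917), Ctnnb1, Apc, Bcl9l, Tle2, Ephb2 (0.144), Stab2 (0.0775) and Clec4g (0.346), the replicate block those of Wnt4 (0.0732), Ctnnb1 and Tle2 (0.0575), and a variance trend that of Wnt11 (0.0569). Without the filter the calls of Glul, Lect2, Lgr5, Wnt4, Wnt5b, Wnt11, Porcn, Ctnnb1, Apc, Tcf7, Bcl9l, Tle2, Sp5, Ephb2, Cyp2e1, Cyp1a2, Cyp7a1, Cyp2c50, Cyp2f2, Stab2, Clec4g and Cd5l were lost. Requiring a signal well above background on all 6 arrays left 10 of the 80 untested, among them Wnt4, Wnt11, Fzd3, Fzd5, Tcf7, Dkk4, Sp5, Ascl2 and Cyp7a1, and ended 0 of the other calls. The counts then were 3 ligands lower, against 5, and 0 receptors (against 2), 0 TCF factors (against 1) and 2 targets of other tissues (against 3) higher. The 10 genes left untested had passed the filter of the main test through 1 group alone, which selects for a difference. Same-numbered samples deviated together with r of 0.07, 0.13 and 0.05, and differently numbered samples with r of -0.14 to 0.06. With 3 samples a group these r cannot decide whether the numbers are pairs, and the main test did not take them as pairs. With the replicate block limma called 7020 probes, 7 readout genes and 76 list genes, and left the Glul to Gls2 difference at -2.24. With the paired version of the methods' t-test, a replicate block too, 0 probes, 0 readout genes and 0 list genes passed after adjustment, and 7418 probes, 5 readout genes and 58 list genes at unadjusted p under 0.05. The causes were not tested. Of 38 list genes with several tested probes, 29 had the same call by each and 0 had opposite calls. Probe signals near background, as those of Axin2, limit what can be tested.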
